A study of Mus musculus with 14 samples.

Results

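OT-I CD8+ T cells recovered from mice given ERY1-OVA were compared with those from mice given TER119-SIINFEKL, the 2 erythrocyte-bound forms of antigen in the series. These are 6 of its 14 libraries, 3 per group, chosen by the labels of the deposited table, and all genes of the table were considered. OT-I cells carry a transgenic T cell receptor for SIINFEKL, the ovalbumin (OVA) peptide presented by MHC class I. CFSE-labelled OT-I cells (CD45.1) were transferred on day 0 into CD45.2+ C57BL/6 recipients. The labels give an age of 8 to 12 weeks. On day 1 each mouse of the antigen groups received 223 pmol by vein, the amount in 10 μg of OVA, and on day 4 spleen cells were freed of red cells by lysis, depleted of other cells with magnetic beads and sorted as CD3e+ CD8+ CD45.1+. In ERY1-OVA the whole OVA protein carried the erythrocyte-binding peptide ERY1, and in TER119-SIINFEKL the peptide was joined to the erythrocyte-binding antibody TER119. Mice given OVA (3 libraries), SIINFEKL peptide (2 libraries) and saline, named Naive (3 libraries), had the same cells and timing. The targeted forms differed both in the antigen, protein or peptide, and in the erythrocyte binder, and these differences cannot be told apart. Poly(A) RNA was sequenced, and values are RPKM, reads per kilobase of gene length scaled to library size.

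Antigen on erythrocytes reaches phagocytes as red cells are cleared in spleen and liver, and peptide presented there without inflammation is known to drive CD8+ T cells into division followed by deletion or unresponsiveness. A whole protein must be processed before its peptide is presented. Signals from the T cell receptor induce early growth response and Nr4a transcription factors, chemokines and costimulatory receptors, and through Myc and mTOR they raise ribosome production, nucleotide synthesis and glycolysis. Rested T cells instead express receptors for survival cytokines and for exit from lymphoid organs.

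The cells carried the transcripts that the sort selects for. Over the 6 libraries Cd8a lay at 247 to 303 RPKM, Cd8b1 at 482 to 714 RPKM, Cd3e at 352 to 387 RPKM, and Cd4 at 0.522 to 1.31 RPKM. Sequencing depth is not recorded in the table of RPKM, which limits how firmly low values can be read. TER119-SIINFEKL replicate 1 stood apart from the other libraries of its group. Across genes, the rank correlation of its deviation from the group mean with gene length was -0.46, against 0.495 and 0.217 in TER119-SIINFEKL replicates 2 and 3, and it lay at -19.4 on the third principal component of the 14 libraries, against 14.9 and 9.3. Deviations within a group depend on each other, and other groups split on these measures too. The correlations were 0.387, -0.327 and -0.196 in ERY1-OVA replicates 1 to 3, and -0.469, 0.278 and 0.453 in those of OVA. On the third component they lay at 12.1, -12.4 and -5.9, and at -18.3, 12.8 and 10.4. These measures alone thus do not single out 1 library of the series. TER119-SIINFEKL replicate 1 also held more B cell, erythroid and NK cell transcript, as given below, and the calls lost without it are named after the account of all calls. The spread within groups was similar in the targeted groups, with a pooled SD of 0.245 log2 units in ERY1-OVA and 0.255 in TER119-SIINFEKL. The 2 SIINFEKL libraries spread more, at 0.416.

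Few transcripts passed the test between the targeted groups, and those that did were mostly lower after ERY1-OVA. Of 9793 genes tested with limma, 55 (0.562%) were called at a Benjamini-Hochberg adjusted p under 0.05, 48 of them (0.49%) lower and 7 (0.0715%) higher in ERY1-OVA than in TER119-SIINFEKL. The genes lower in ERY1-OVA included chemokines, TNF family members and transcription factors induced by the T cell receptor, nucleolar factors of ribosome production, and enzymes of folate and nucleotide metabolism. Those higher in ERY1-OVA included receptor chains for interleukin 6 and the egress receptor S1pr1. At an unadjusted p under 0.05 the test gave 636 lower genes (6.49%) and 429 higher ones (4.38%), and the median log2 difference over all genes was 0.02. The 3 values of one group did not overlap those of the other for all 55 called genes, as was the case for 896 genes (9.15%) in the lower and 678 (6.92%) in the higher direction among all tested.

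The calls depended on single libraries. Without ERY1-OVA replicate 1, 13 genes were called, without its replicate 2 none, and without its replicate 3, 18. Without TER119-SIINFEKL replicate 1, 42 genes were called, 29 of them among the 55, and without its replicate 2 or replicate 3 none. In the runs with no call, 799, 985 and 801 genes had an unadjusted p under 0.05, for the loss of ERY1-OVA replicate 2 and TER119-SIINFEKL replicates 2 and 3 in that order, and the smallest adjusted p was 0.059, 0.064 and 0.075. Each of the 55 calls was thus lost in at least 3 of the 6 runs. Without TER119-SIINFEKL replicate 1 the others of the 55 lost theirs, at adjusted p of 0.056 to 0.11. Lower in ERY1-OVA among them were Ccl4, Xcl1, Tnfrsf9, Crtam, Cst7, Akap1, Nop16, Nop2, Fbl, Rrp15, Ccdc86, Pus7, Nsun2, Bag2, Lap3, Galk1, Ppa1, Rsad1, Adck1, Rangrf, Gm10355 and Atad3a, and higher were Il6ra, Il6st, Galnt6 and Cmah. All 55 genes kept their direction in each of these runs and in every other setting tried. A correction for gene length and GC content called 94 genes, 79 lower and 15 higher in ERY1-OVA, with 49 of the 55 among them.

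**Figure D1:**
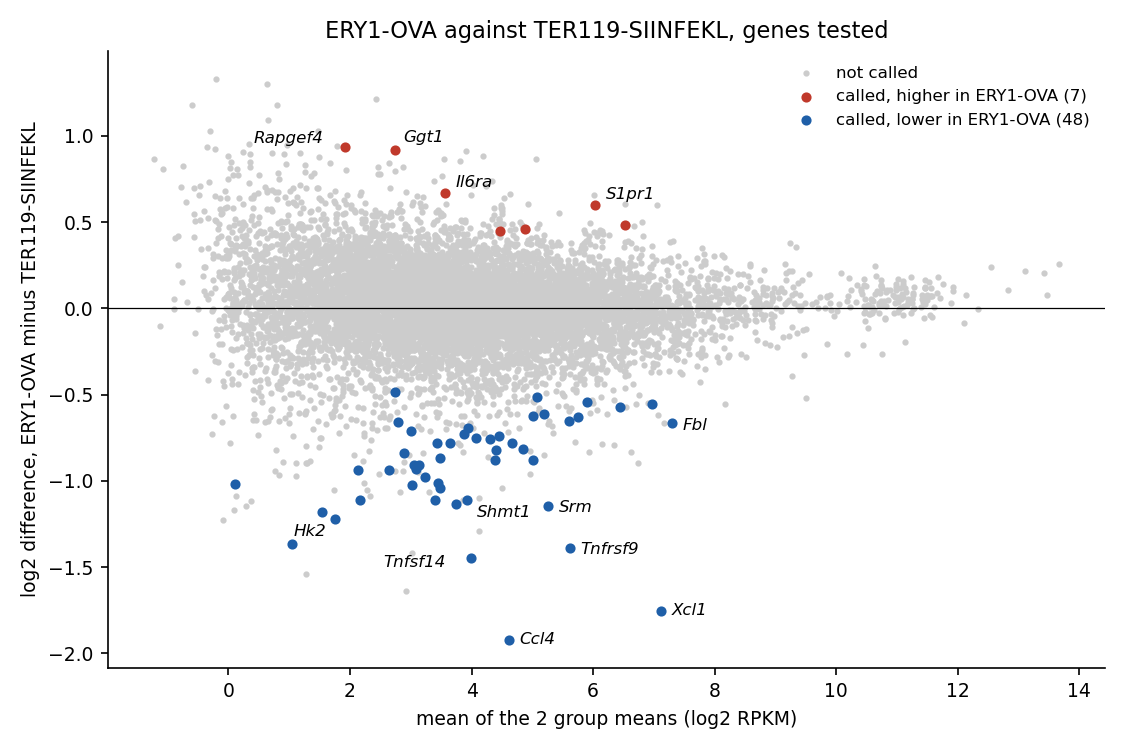
Each point is 1 of the 9793 genes tested, with the mean level of the ERY1-OVA and TER119-SIINFEKL groups (log2 RPKM) on the x axis and the log2 difference, ERY1-OVA minus TER119-SIINFEKL, on the y axis. The 48 called genes below 0 reach -1.92 in Ccl4, and the 7 above 0 reach 0.94 in Rapgef4.

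Secreted and surface signals of activated CD8+ T cells gave the largest differences. Both chemokine genes called, Xcl1 and Ccl4, and both called TNF family genes, Tnfsf14 and Tnfrsf9, were lower after ERY1-OVA. Xcl1 (chr1:164931644-164935527, GRCm38, minus strand) encodes the chemokine that attracts cross-presenting dendritic cells through XCR1. It had 60.4, 79.2 and 91.8 RPKM in ERY1-OVA libraries, against 362, 173 and 268 RPKM in TER119-SIINFEKL libraries, and the lowest TER119-SIINFEKL value was above every ERY1-OVA value. The log2 difference was -1.75 ± 0.33 (SE, 3 against 3 libraries, adjusted p = 0.037). Ccl4 (chr11:83662584-83664683, plus strand) encodes MIP-1β, a chemokine of activated T cells. It had 8.67, 14.5 and 16.1 RPKM in ERY1-OVA libraries, against 49.6, 44.4 and 49.9 RPKM in TER119-SIINFEKL libraries, a log2 difference of -1.92 ± 0.38 (adjusted p = 0.043). The TER119-SIINFEKL values were close together, and all were more than any ERY1-OVA or Naive value (7.20, 6.08 and 13.0 RPKM in Naive libraries). Without TER119-SIINFEKL replicate 1 the 2 chemokine calls were lost, at -1.50 for Xcl1 (adjusted p = 0.091) and -1.90 for Ccl4 (adjusted p = 0.084). For Xcl1, 18.7% of the exon length is shared with an annotated transcript on the opposite strand, and whether counting used the strand is not given in the sources used here.

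Tnfsf14 (chr17:57189492-57194177, minus strand) encodes LIGHT, a TNF family ligand that costimulates T cells through HVEM. It had 9.57, 10.9 and 8.57 RPKM after ERY1-OVA, against 27.9, 27.2 and 23.8 RPKM after TER119-SIINFEKL and 5.78, 7.002 and 7.95 RPKM in Naive libraries. ERY1-OVA values lay just above the Naive ones, and the log2 difference between the targeted groups was -1.45 ± 0.18 (adjusted p = 0.011). Tnfrsf9 (chr4:150914562-150946102, plus strand) encodes 4-1BB, a costimulatory receptor that appears on CD8+ T cells after receptor engagement. It had 26.5, 29.4 and 35.4 RPKM after ERY1-OVA, against 99.0, 66.6 and 75.3 RPKM after TER119-SIINFEKL, a log2 difference of -1.39 ± 0.27 (adjusted p = 0.044, and 0.1 without TER119-SIINFEKL replicate 1). The groups did not overlap. Of the 13 cytokine and chemokine genes tested, 8 were lower at any size, with a median of -0.06 (-0.62 to -0.05 with 1 library left out). Of 18 costimulation and TNF family genes 13 were lower, where 45.2% of all genes were lower and 0.49% were called lower. The median of that list was -0.17 (-0.29 to -0.12). Members that did not pass the test included Ccl3, the related chemokine MIP-1α (-1.64 ± 0.51, adjusted p = 0.22), Mif, macrophage migration inhibitory factor (-0.56 ± 0.14, adjusted p = 0.1), and the costimulatory receptor Icos (-0.60 ± 0.14, adjusted p = 0.087), with no overlap between groups for Mif and Icos. Ifng overlapped, with 3.40, 9.55 and 31.7 RPKM after ERY1-OVA and 6.41, 10.5 and 24.8 RPKM after TER119-SIINFEKL (-0.23 ± 0.78, adjusted p = 0.98).

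Transcription factors that follow T cell receptor engagement were called lower in 2 of 18 cases, Egr2 and Nr4a3, with no member higher. Egr2 (chr10:67535475-67542188, plus strand) is a zinc finger factor that limits T cell activation and is raised in anergic cells. It had 6.89, 7.36 and 5.85 RPKM after ERY1-OVA, against 12.8, 15.2 and 11.7 RPKM after TER119-SIINFEKL and 3.09, 3.75 and 3.88 RPKM in Naive libraries. The 3 groups did not overlap, with ERY1-OVA in the middle, and the log2 difference between the targeted groups was -0.98 ± 0.14 (adjusted p = 0.011). Nr4a3, an orphan nuclear receptor of the same response, had 9.05, 5.96 and 6.84 RPKM after ERY1-OVA, against 12.4, 18.3 and 16.4 RPKM after TER119-SIINFEKL, a log2 difference of -1.11 ± 0.19 (adjusted p = 0.025). Again no value overlapped. Over the list 16 genes were lower and 2 higher at any size, where 45.2% of all genes were lower and 0.49% were called lower. The median was -0.29 (-0.58 to -0.23 with 1 library left out), against 0.02 for all genes. Egr3, the related factor, had 15.3, 10.6 and 10.3 RPKM after ERY1-OVA and 25.1, 26.1 and 25.1 RPKM after TER119-SIINFEKL, with no overlap but a wide error over the 5 groups (-1.10 ± 0.31, adjusted p = 0.16). Tox, linked to T cell exhaustion, stood at -0.50 ± 0.15 (adjusted p = 0.21) and Myc at -0.41 ± 0.21 (adjusted p = 0.51). Nr4a1 overlapped between groups (-0.19 ± 0.41, adjusted p = 0.96).

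AP-1 and immediate-early genes, which respond within minutes to receptor signals and also to cell handling, did not share that direction. None of 18 was called, and 17 of 18 were higher in ERY1-OVA at any size, where 45.2% of all genes were lower. The list had a median of 0.41. That median moved between -0.13 and 0.87 when 1 library was left out, and the summed level of the list varied within groups, at 579.9, 785 and 1615 RPKM in ERY1-OVA libraries and 577, 606 and 1062 RPKM in TER119-SIINFEKL libraries.

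Further called genes act at the surface, in granules or in signalling. Crtam, an immunoglobulin family receptor induced on activated CD8+ T cells, had 47.4, 49.0 and 51.3 RPKM after ERY1-OVA, against 74.3, 70.1 and 70.7 RPKM after TER119-SIINFEKL and 19.9, 19.0 and 22.7 RPKM in Naive libraries. Both targeted groups were far above Naive, and they differed by -0.54 ± 0.10 (adjusted p = 0.037). Cd22, a sialic acid-binding inhibitory receptor best known from B cells, had 6.28, 6.02 and 5.90 RPKM after ERY1-OVA, against 10.9, 10.9 and 12.4 RPKM after TER119-SIINFEKL and 0.317, 0.435 and 0.369 RPKM in Naive libraries. The log2 difference was -0.91 ± 0.14 (adjusted p = 0.014), and it was -0.94 (adjusted p = 0.032) without TER119-SIINFEKL replicate 1. Cd82, a tetraspanin of the T cell surface, stood at -0.56 and Cst7, an inhibitor of the cathepsins of cytotoxic granules, at -0.57. Sh3bp2, an adaptor of receptor-proximal kinases, stood at -0.93 and Relb, a subunit of the noncanonical NF-κB pathway, at -0.69. For Cd82 and Relb the ERY1-OVA libraries were also below Naive (-0.61 ± 0.09, adjusted p = 0.00019, and -0.78 ± 0.14, adjusted p = 0.00056), while TER119-SIINFEKL had log2 differences from Naive of -0.06 and -0.09. Car12, a membrane carbonic anhydrase, had 1.19, 1.141 and 1.58 RPKM after ERY1-OVA, against 2.87, 3.76 and 3.40 RPKM after TER119-SIINFEKL (-1.37 ± 0.21, adjusted p = 0.015).

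**Figure D2:**
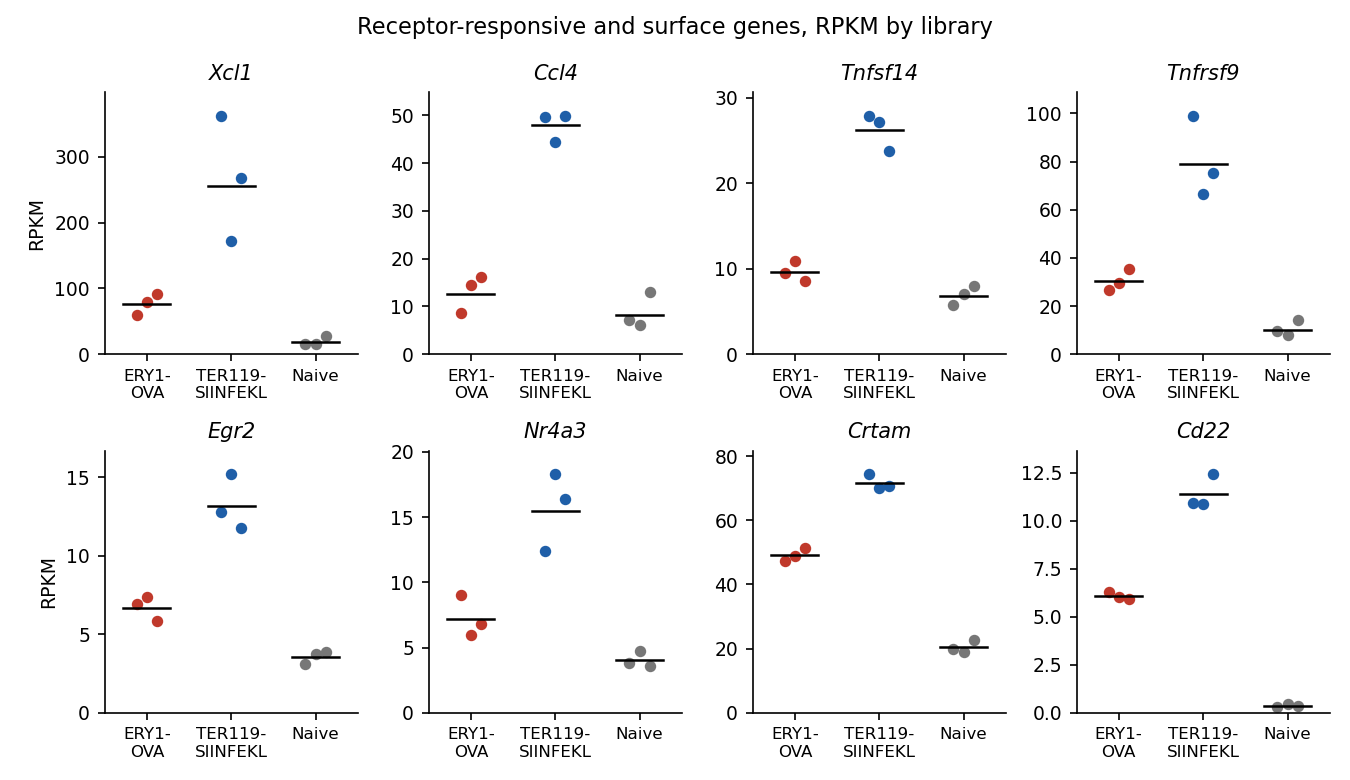
RPKM of 8 called genes (y axes from 0, each with its own scale) in the ERY1-OVA, TER119-SIINFEKL and Naive libraries on the x axis, with 1 point per library and a line at the geometric mean. In each panel the 3 ERY1-OVA points lie below the 3 TER119-SIINFEKL points, and Cd22 is under 0.5 RPKM in Naive libraries.

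Genes of ribosome production were the most numerous group among the calls. Of 123 genes for nucleolar ribosome assembly and RNA polymerase I, 12 were called lower in ERY1-OVA (against 0.49% of all genes) and none higher. The list was written after the called genes were seen, so its counts describe them and support nothing further. At any size 113 members were lower and 10 higher, where 45.2% of all genes were lower. An unadjusted p under 0.05 was found in 79, against 10.9% of all genes. The values of 81 did not overlap between groups, all in the lower direction, as for 9.15% of all genes. The median difference was -0.41, and it stayed between -0.45 and -0.37 when 1 library was left out.

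Polr1b (chr2:129100995-129126594, plus strand) encodes the second largest subunit of RNA polymerase I, which transcribes the ribosomal RNA precursor. It had 9.19, 7.54 and 8.04 RPKM after ERY1-OVA, against 13.7, 15.6 and 16 RPKM after TER119-SIINFEKL and 13.5, 15.0 and 13.2 RPKM in Naive libraries. ERY1-OVA lay below both other groups, whose values overlapped, and the difference between the targeted groups was -0.87 ± 0.13 (adjusted p = 0.011). Cd3eap, another subunit of that polymerase, stood at -0.84 ± 0.15 (adjusted p = 0.025). Fbl encodes fibrillarin, which methylates ribosomal RNA, and was the most abundant called gene of this list per length. It had 125, 118 and 132 RPKM after ERY1-OVA, against 207, 186 and 203 RPKM after TER119-SIINFEKL and 159.9, 161 and 164 RPKM in Naive libraries, a log2 difference between the targeted groups of -0.67 ± 0.12 (adjusted p = 0.037). Naive values lay between the 2 groups without overlap.

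Assembly factors of the large subunit separated the targeted groups too. Nop16 had 21.2, 25.1 and 25.7 RPKM after ERY1-OVA, against 45.0, 41.4 and 45.8 RPKM after TER119-SIINFEKL (-0.88 ± 0.15, adjusted p = 0.025), and Nop2, an RNA methyltransferase, had 16.9, 12.9 and 16.8 RPKM against 25.7, 29.2 and 30.2 RPKM in the same groups (-0.88 ± 0.18, adjusted p = 0.047). Neither overlapped. Ppan (-0.82), Rrp15 (-0.76), Bop1 (-0.52), a member of the complex that processes the large subunit precursor, and the nucleolar proteins Nol10 (-0.93) and Ccdc86 (-0.71) were called as well. So were Ruvbl1, an ATPase that helps assemble small nucleolar ribonucleoproteins (-0.61), and the importin Ipo4 (-0.78). Of the 12 called genes, ERY1-OVA was called below Naive in 7 and above it in 1, and TER119-SIINFEKL was called above Naive in 6 and below it in none, comparisons that share the Naive libraries. Of all genes, 19.0% were called below and 20.9% above Naive in ERY1-OVA, and 24.6% above and 23.0% below in TER119-SIINFEKL. The 12 were chosen on the same targeted libraries, so their counts cannot be weighed against these shares. Annotated exons overlap those of another gene over 55.3% of the exon length in Ipo4, on the same strand, and over 17.9% in Ccdc86, on the opposite one. The 31 cytosolic ribosomal protein genes tested, which encode parts of the ribosome itself, had no call and a median of 0.05 (-0.13 to 0.27 with 1 library left out).

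**Figure D3:**
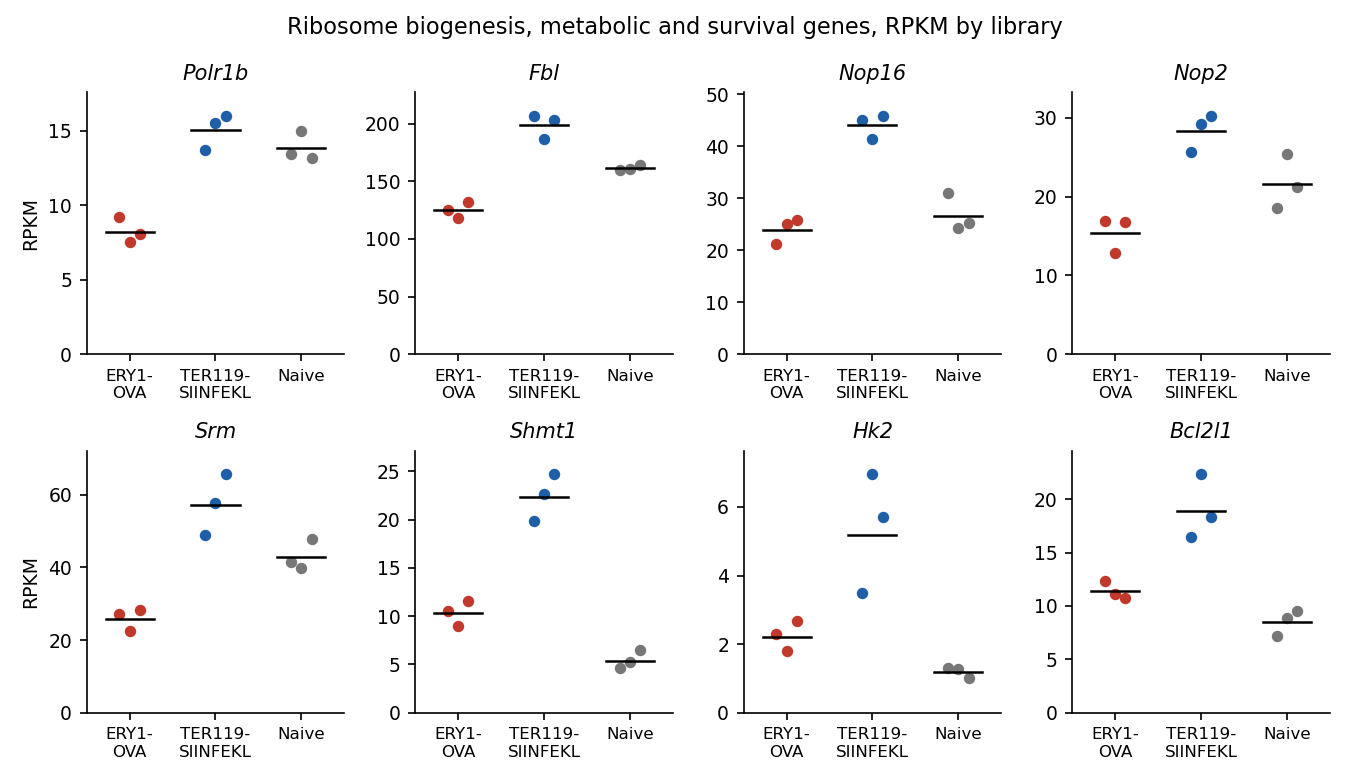
RPKM of 8 called genes of ribosome production, metabolism and survival (y axes from 0, each with its own scale) in the ERY1-OVA, TER119-SIINFEKL and Naive libraries on the x axis, with 1 point per library and a line at the geometric mean. ERY1-OVA lies below Naive for Polr1b, Fbl, Nop2 and Srm, and above Naive for Shmt1, Hk2 and Bcl2l1.

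Promoter sequence was read for the called genes because nucleolar and nucleotide enzyme genes are known targets of Myc, which binds the E-box CACGTG. RefSeq promoter windows (GRCm38.p6, the 250 bases before the transcription start) were found for 46 of the 55 called genes. The E-box, searched on both strands, which read alike for this palindrome, was present in 5 of 40 genes lower in ERY1-OVA (12.5%), Egr2, Nop2, Cd3eap, Galk1 and Ppa1, in 1 of 6 higher genes, Il6ra (16.7%), and in 658 of 7327 genes tested (8.98%). It was absent from the windows of the called folate and nucleotide genes Shmt1, Dctd, Mthfd1 and Slc19a1. Among called genes of ribosome production, Nol10, Polr1b, Ruvbl1, Nop16, Ipo4, Ppan, Ccdc86 and Rrp15 also lacked it. Bop1 and Fbl had no window. The 3 windows printed here belong to 2 ribosome production genes and to Egr2, which was lower after the protein in both pairs of antigens, with the E-box in capitals and its first base 60 (Nop2), 218 (Cd3eap) and 27 (Egr2) bases before the start.
Nop2, chr6:125131633-125131882, plus strand: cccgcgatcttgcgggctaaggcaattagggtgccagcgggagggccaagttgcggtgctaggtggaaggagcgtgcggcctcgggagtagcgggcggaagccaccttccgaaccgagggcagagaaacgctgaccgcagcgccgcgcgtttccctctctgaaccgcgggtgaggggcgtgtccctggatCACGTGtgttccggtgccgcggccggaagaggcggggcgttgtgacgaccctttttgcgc
Cd3eap, chr7:19359484-19359733, minus strand: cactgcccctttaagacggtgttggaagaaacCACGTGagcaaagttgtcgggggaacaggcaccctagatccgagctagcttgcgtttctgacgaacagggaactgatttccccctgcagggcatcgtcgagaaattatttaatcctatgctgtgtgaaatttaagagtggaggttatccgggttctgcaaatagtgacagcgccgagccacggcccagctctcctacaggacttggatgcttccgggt
Egr2, chr10:67535249-67535498, plus strand: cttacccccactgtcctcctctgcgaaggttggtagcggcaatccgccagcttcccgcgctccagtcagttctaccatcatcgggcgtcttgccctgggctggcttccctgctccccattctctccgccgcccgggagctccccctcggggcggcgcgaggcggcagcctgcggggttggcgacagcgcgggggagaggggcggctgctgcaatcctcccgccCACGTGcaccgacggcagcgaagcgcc
Among other motifs searched on both strands, the AP-1 site TGACTCA was present in 7.5% of the windows of lower genes, against 2.63% of all genes tested, and the cAMP response element TGACGTCA in 5.0%, against 2.99%. The NFAT core GGAAAA was in 12.5%, against 18.7%. The EGR site GCGTGGGCG was in none of the 40 windows and in 1.09% of all genes tested. A match is a run of letters in these windows, not a bound site.

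Enzymes of folate and nucleotide metabolism were lower in ERY1-OVA as well. Of 48 genes tested on a list also written after the calls were seen, 4 were called lower (against 0.49% of all genes) and none higher. At any size 31 were lower, where 45.2% of all genes were, and the median was -0.16. Shmt1, the cytosolic serine hydroxymethyltransferase that loads carbon from serine onto folate, had 10.6, 8.97 and 11.6 RPKM after ERY1-OVA, against 19.9, 22.6 and 24.7 RPKM after TER119-SIINFEKL and 4.61, 5.24 and 6.53 RPKM in Naive libraries. The 3 groups did not overlap, and the targeted groups differed by -1.11 ± 0.15 (adjusted p = 0.011). Mthfd1, which interconverts the folate intermediates, had 25.0, 17.6 and 22.9 RPKM after ERY1-OVA, against 33.7, 39.5 and 41.5 RPKM after TER119-SIINFEKL (-0.82 ± 0.16, adjusted p = 0.04). Slc19a1, the reduced folate carrier, had a difference of -0.78 ± 0.12 (adjusted p = 0.015). Dctd, the deaminase that provides dUMP for thymidylate synthesis, had 3.15, 2.61 and 3.50 RPKM after ERY1-OVA, against 5.72, 6.69 and 7.59 RPKM after TER119-SIINFEKL and 5.63, 4.67 and 5.17 RPKM in Naive libraries (-1.11 ± 0.16 between the targeted groups, adjusted p = 0.011). Its ERY1-OVA values lay below all TER119-SIINFEKL and Naive values, while the SIINFEKL libraries had 2.29 and 2.86 RPKM.

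Other metabolic genes followed. Srm, spermidine synthase of the polyamine pathway, had 27.2, 22.4 and 28.3 RPKM after ERY1-OVA, against 49.1, 57.7 and 65.6 RPKM after TER119-SIINFEKL and 41.6, 40.0 and 47.8 RPKM in Naive libraries. Naive lay between the groups without overlap, and the targeted groups differed by -1.14 ± 0.19 (adjusted p = 0.019). Hk2, the inducible hexokinase that starts glycolysis, had 2.29, 1.79 and 2.66 RPKM after ERY1-OVA, against 3.49, 6.95 and 5.71 RPKM after TER119-SIINFEKL (-1.22 ± 0.25, adjusted p = 0.049), with the lowest of the TER119-SIINFEKL values in replicate 1. It was the only call among 16 glycolysis genes, of which 14 were lower at any size, where 45.2% of all genes were. The list had a median of -0.18, with -0.55 for Tpi1 (adjusted p = 0.076) and -0.37 for Pgam1 (adjusted p = 0.099). Of 15 genes of amino acid response and transport, Shmt1 alone was called. Slc7a5, the leucine transporter chain, had a difference of -0.76 ± 0.20 (adjusted p = 0.12), and without TER119-SIINFEKL replicate 1 it was called, at -0.99 (adjusted p = 0.041), as was Tpi1, at -0.67 (adjusted p = 0.042).

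The remaining lower genes were spread over several functions. Akap1, which anchors protein kinase A at mitochondria, stood at -1.18 ± 0.23 (adjusted p = 0.044). Mitochondrial import and maintenance genes Tomm40 (-0.62) and Atad3a (-0.74) were called, while none of 28 oxidative phosphorylation genes was, at a median of -0.05. The lysine methyltransferase family genes Smyd5 (-1.13) and Smyd2 (-0.91) and the RNA modifying enzymes Pus7 (-1.02) and Nsun2 (-0.63) were called. So were the co-chaperone Bag2 (-0.93), the leucine aminopeptidase Lap3 (-0.75), galactokinase Galk1 (-0.78), the pyrophosphatase Ppa1 (-0.65), the phospholipase Pla2g12a (-0.66), Rsad1 (-1.02) and Adck1 (-0.48). Rangrf (-1.01) and Gm10355 (-1.04) had nearly the same values, with log2 RPKM that differed by a median of 0.075 and at most 0.186 over the libraries, so their reads may be shared and they are uncertain as 2 genes. For Rangrf, 90.7% of the exon length also overlaps a gene on the opposite strand, and the share is 30.0% for Smyd2 and 11.4% for Galnt6.

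Among 24 apoptosis regulators, Bcl2l1 was called. It encodes Bcl-xL, which protects activated T cells from mitochondrial death. It had 12.3, 11.1 and 10.8 RPKM after ERY1-OVA, against 16.5, 22.3 and 18.3 RPKM after TER119-SIINFEKL and 7.23, 8.84 and 9.54 RPKM in Naive libraries. ERY1-OVA lay between the other groups without overlap, and the targeted groups differed by -0.73 ± 0.15 (adjusted p = 0.047). The related survival gene Bcl2a1b had a difference of -0.83 ± 0.37 (adjusted p = 0.43), with 56.3, 82.6 and 87.6 RPKM after ERY1-OVA and 157, 114 and 129 RPKM after TER119-SIINFEKL. Its close paralogs can share reads, so its level is uncertain.

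The 7 genes higher in ERY1-OVA all had means below Naive in both targeted groups, with ERY1-OVA the nearer to Naive. TER119-SIINFEKL was called below Naive in all 7 and ERY1-OVA in 6, the exception being Il6st (-0.21 ± 0.10, adjusted p = 0.11). The 7 were chosen for higher ERY1-OVA than TER119-SIINFEKL values, so these counts support nothing further. S1pr1 (chr3:115710433-115715072, minus strand) encodes the sphingosine 1-phosphate receptor through which T cells leave lymphoid organs. It had 84.1, 88.7 and 70.4 RPKM after ERY1-OVA, against 56.6, 54.9 and 48.6 RPKM after TER119-SIINFEKL and 161, 182 and 158 RPKM in Naive libraries, and the 3 groups did not overlap. The targeted groups differed by 0.60 ± 0.11 (adjusted p = 0.035). Il6ra, the ligand-binding chain of the interleukin 6 receptor, had 16.03, 14.8 and 14.04 RPKM after ERY1-OVA, against 8.73, 9.23 and 10.3 RPKM after TER119-SIINFEKL and 49.8, 49.8 and 49.4 RPKM in Naive libraries (0.67 ± 0.12 between the targeted groups, adjusted p = 0.025). Il6st, its signalling chain gp130, had 115, 105 and 107 RPKM after ERY1-OVA, against 80.7, 75.8 and 76.6 RPKM after TER119-SIINFEKL (0.49 ± 0.10, adjusted p = 0.047). Both chains were thus separated between the groups in all libraries.

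Rapgef4, which encodes the cAMP-activated exchange factor EPAC2, had the largest difference upwards. It had 4.63, 5.27 and 5.87 RPKM after ERY1-OVA, against 2.54, 2.82 and 2.85 RPKM after TER119-SIINFEKL and 10.3, 9.94 and 8.83 RPKM in Naive libraries (0.94 ± 0.14 between the targeted groups, adjusted p = 0.011). Ggt1, a glutathione-cleaving enzyme of the cell surface, stood at 0.92 ± 0.18 (adjusted p = 0.043). The glycosylation enzymes Galnt6, which starts mucin-type O-glycans, and Cmah, which makes N-glycolylneuraminic acid, stood at 0.46 ± 0.09 (adjusted p = 0.043) and 0.45 ± 0.09 (adjusted p = 0.037). Without TER119-SIINFEKL replicate 1, S1pr1, Ggt1 and Rapgef4 kept their calls, and Il6ra (adjusted p = 0.068), Il6st (0.071), Galnt6 (0.071) and Cmah (0.073) did not.

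Of 20 naive and memory genes tested, 2 were called higher, Rapgef4 and S1pr1, and none lower. None was lower at any size, and the median was 0.54 (0.43 to 0.66 with 1 library left out), against 0.02 for all genes. The list had medians of -1.12 after ERY1-OVA and -1.79 after TER119-SIINFEKL relative to Naive. It was written with earlier results of these data known, so neither its difference between the targeted groups nor its fall from Naive supports anything further. Il7r, the receptor chain for the survival cytokine interleukin 7, had 19.1, 29.3 and 27.4 RPKM after ERY1-OVA, against 16.8, 9.12 and 15.99 RPKM after TER119-SIINFEKL and 139, 164 and 161 RPKM in Naive libraries, with no overlap (0.88 ± 0.21 between the targeted groups, adjusted p = 0.087). Ccr7, for entry into lymph nodes, had 0.50 ± 0.13 (adjusted p = 0.11). Cytokine receptor chains were higher in 19 of 22 cases at any size, with Il6ra and Il6st called, a median of 0.24 and 10 members at an unadjusted p under 0.05 in either direction. Of all genes, 0.0715% were called higher, 45.2% were lower at any size and 10.9% had an unadjusted p under 0.05. Il2ra, the interleukin 2 receptor alpha chain, went the other way at low levels, with 0.635, 0.937 and 0.608 RPKM after ERY1-OVA and 1.41, 3.07 and 0.952 RPKM after TER119-SIINFEKL (-1.17 ± 0.40, adjusted p = 0.25).

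Inhibitory receptors did not pass the test in any of 13 cases, though 11 were lower at any size, 7 of them without overlap, and the median was -0.39 (-0.46 to -0.28 with 1 library left out). Of all genes, 45.2% were lower at any size and 9.15% lower without overlap. Pdcd1, which encodes PD-1, had 14.4, 16.8 and 16.5 RPKM after ERY1-OVA, against 33.9, 32.2 and 32.0 RPKM after TER119-SIINFEKL and 0.294, 0.378 and 0.421 RPKM in Naive libraries. The targeted groups were far apart relative to their own spread, yet the test missed the threshold (-1.04 ± 0.59, adjusted p = 0.59), with an error that also takes in the SIINFEKL libraries at 30.1 and 2.33 RPKM. When the SIINFEKL group was left out of the fit, 163 genes were called, 137 lower and 26 higher, and all 55 were among them. These counts are over all genes, and the result of Pdcd1 itself in that fit is not given here. Tigit had -0.89 ± 0.36 (adjusted p = 0.37), Cd200, a ligand of an inhibitory receptor, -0.85 ± 0.42 (adjusted p = 0.49), Cd160 -0.72 ± 0.25 (adjusted p = 0.27) and Lag3 -0.44 ± 0.63 (adjusted p = 0.93). Ctla4 overlapped between groups, at 40.5, 54.9 and 108 RPKM after ERY1-OVA and 53.9, 72.5 and 63.5 RPKM after TER119-SIINFEKL (-0.01 ± 0.43, adjusted p = 1).

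Several other lists held no call. Of 20 anergy and receptor attenuation genes, 10 were lower and 10 higher at any size. Folr4, folate receptor 4, had 84.1, 86.0 and 89.3 RPKM after ERY1-OVA, against 167, 111 and 110.5 RPKM after TER119-SIINFEKL (-0.55 ± 0.26, adjusted p = 0.45, and -0.35 without TER119-SIINFEKL replicate 1), and Ikzf2, which encodes the regulatory factor Helios, had a difference of 0.15 ± 0.28 (adjusted p = 0.95). Cytotoxic granule and death ligand genes had a median of 0.04 over 15 genes. Gzmb had 5.80, 8.62 and 11.7 RPKM after ERY1-OVA and 10.8, 9.15 and 6.33 RPKM after TER119-SIINFEKL, and Gzmk 1.94, 3.39 and 4.75 RPKM and 2.08, 3.87 and 2.88 RPKM in the same groups, with overlap in both genes. Effector and memory transcription factors had a median of 0.14 over 21 genes, and Tbx21 (0.13 ± 0.22), Eomes (-0.10 ± 0.36), Irf4 (-0.44 ± 0.26) and Irf8 (-0.43 ± 0.25) overlapped between groups. Tcf7, a factor of naive and memory cells, did not overlap, at 859, 704 and 644 RPKM after ERY1-OVA and 561, 586 and 566 RPKM after TER119-SIINFEKL (0.35 ± 0.15, adjusted p = 0.38). Of the CD8 chains, Cd8b1 had a difference of 0.38 ± 0.11 (adjusted p = 0.16, no overlap) and Cd8a one of 0.12 ± 0.10 (adjusted p = 0.81).

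Division genes were high in both targeted groups, and none was called between them. All 28 mitotic genes were higher in ERY1-OVA at any size, where 45.2% of all genes were lower. But none had an unadjusted p under 0.05, and the median of 0.21 was 0.04 without TER119-SIINFEKL replicate 1. Relative to Naive their medians were 5.12 after ERY1-OVA and 4.89 after TER119-SIINFEKL. Mki67, the proliferation marker, had 91.2, 51.1 and 57.4 RPKM after ERY1-OVA, against 29.2, 74.8 and 63.4 RPKM after TER119-SIINFEKL and 1.60, 1.48 and 2.35 RPKM in Naive libraries, and the targeted groups overlapped. The 30 genes of S phase had a median of 0.01 (-0.13 without TER119-SIINFEKL replicate 1), with 14 lower and 16 higher. Type I interferon response genes were higher in 21 of 23 cases at any size with no call, where 45.2% of all genes were lower. Their median of 0.21 lay between -0.05 and 0.43 with 1 library left out, the highest without TER119-SIINFEKL replicate 1. No call fell among the 12 ERK feedback genes (median 0.16), the 19 genes of the T cell receptor complex (0.06), the 9 NK-type lectin receptors (0.06, and -0.16 to 0.57 with 1 library left out, the highest without TER119-SIINFEKL replicate 1), the 19 chemokine receptors and integrins (-0.03, and 0.13 without that library), the 24 cholesterol genes (-0.05) or the 8 regulatory T cell genes (-0.06).

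**Figure D4:**
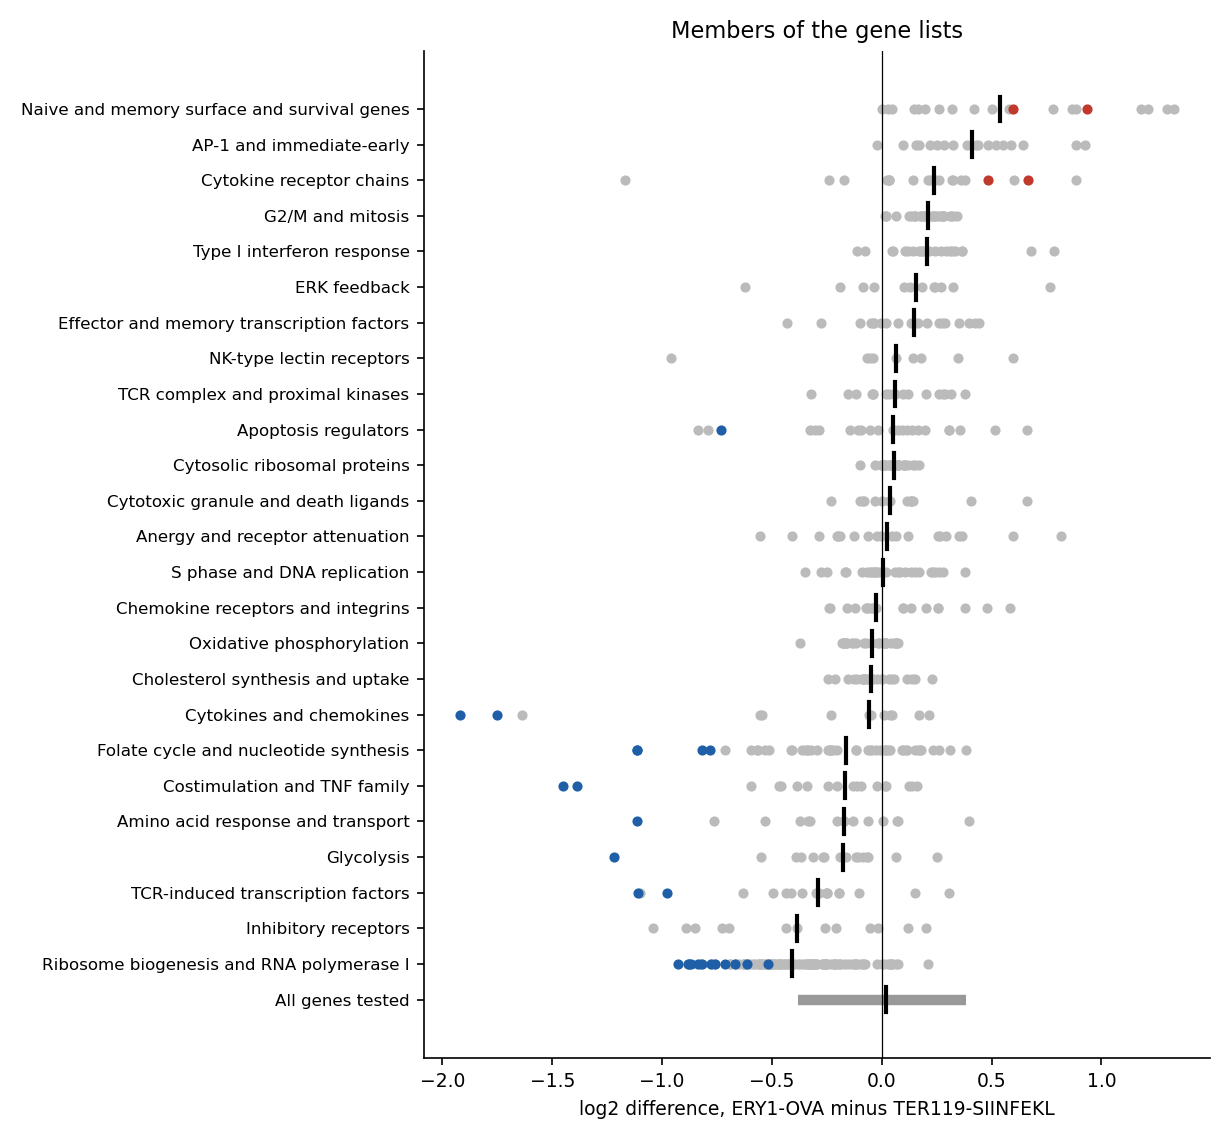
Each point is a tested member of the gene list named on the y axis, at its log2 difference, ERY1-OVA minus TER119-SIINFEKL, on the x axis, blue where called lower in ERY1-OVA, red where called higher and grey where not called. Black ticks are list medians, from 0.54 for naive and memory genes to -0.41 for ribosome production, and the grey bar of the last line spans the 5th to 95th percentiles of all genes tested, -0.38 to 0.39.

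Set against saline, most of the 48 genes lower in ERY1-OVA were called higher in TER119-SIINFEKL than in Naive. TER119-SIINFEKL was called above Naive in 31 of them and below in none, where 24.6% and 23.0% of all genes tested were called higher and lower (47.6% in all). ERY1-OVA was called above Naive in 12 and below in 18, where 20.9% and 19.0% of all genes were (39.9% in all). The 2 comparisons share the Naive libraries. The 48 were also chosen for lower ERY1-OVA than TER119-SIINFEKL values, so these counts cannot be weighed against the shares of all genes. By group means ERY1-OVA lay between the others in 18 of the 48 genes, such as Tnfsf14, Egr2 and Shmt1, and Naive lay between in 26, such as Srm and Fbl. TER119-SIINFEKL lay between in 4. Over all genes tested these orders held 55.0%, 11.1% and 33.9%, but genes called for a wide difference leave more room for the Naive mean to lie inside it, so the shares do not compare like with like. Among the 7 higher genes, ERY1-OVA lay between Naive and TER119-SIINFEKL in all.

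The soluble antigens allowed the protein and peptide forms to be compared in 5 other libraries. There the order was the opposite for most of these genes. Of the 48 genes lower in ERY1-OVA than in TER119-SIINFEKL, 41 (85.4%) were higher in OVA than in SIINFEKL at any size, where 48.9% of all genes were, and 33 (68.8%) were called higher, where 22.4% of all genes were (42.2% called in either direction). Both comparisons take the error of a gene from the same fit, so genes called in one tend to have a small error in the other. The shares called thus do not compare like with like. The median over the 48 was 0.72 log2 units, against -0.02 over all genes. Without SIINFEKL replicate 1, 43 were higher and 27 called, and without SIINFEKL replicate 2, 38 were higher and 30 called. Of the 7 genes higher in ERY1-OVA, 6 were lower in OVA than in SIINFEKL, all 6 called, with Ggt1 called higher.

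The 12 called genes of ribosome production were all higher in OVA than in SIINFEKL, 11 of them called. Fbl had 201, 178 and 187 RPKM after OVA, against 70.6 and 104 RPKM after SIINFEKL (1.14 ± 0.14, 3 against 2 libraries, adjusted p = 4.3e-05). The 4 called folate and nucleotide genes were called higher in OVA too. Shmt1 had 14.9, 14.1 and 16.1 RPKM after OVA, against 3.96 and 4.56 RPKM after SIINFEKL (1.82 ± 0.16, adjusted p = 3.4e-06). In both genes the OVA values lay within the range spanned by the targeted groups, and the SIINFEKL values lay below all ERY1-OVA values.

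Several genes of receptor signalling were not called higher in OVA. Egr2 had 2.93, 2.99 and 2.62 RPKM after OVA, against 6.90 and 6.34 RPKM after SIINFEKL (-1.22 ± 0.16, adjusted p = 6.4e-05), and was the 1 gene of the 48 called lower in OVA. It was thus lower after protein than after peptide in both pairs. Nr4a3 (-0.04 ± 0.21, adjusted p = 0.9), Tnfsf14 (-0.20 ± 0.20, adjusted p = 0.46), Crtam (0.01 ± 0.11, adjusted p = 0.95) and Xcl1 (0.27 ± 0.37, adjusted p = 0.59) were not called in either direction in the soluble pair. Among the higher genes, S1pr1 had 76.8, 76.8 and 70.5 RPKM after OVA, against 127 and 140.1 RPKM after SIINFEKL (-0.84 ± 0.12, adjusted p = 0.00015).

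The difference between the pairs, ERY1-OVA minus TER119-SIINFEKL less OVA minus SIINFEKL, was tested over all genes, and 3694 (37.7%) were called, 2018 (20.6%) lower and 1676 (17.1%) higher. This test holds the same 6 libraries that gave the 55 calls, so its count among them, 45 of 48 lower and 6 of 7 higher, adds no independent support. The genes not called were Egr2 (0.24 ± 0.21, adjusted p = 0.4), Relb (-0.41 ± 0.20, adjusted p = 0.13), Adck1 (-0.28 ± 0.15, adjusted p = 0.15) and Ggt1 (0.18 ± 0.27, adjusted p = 0.64).

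**Figure D5:**
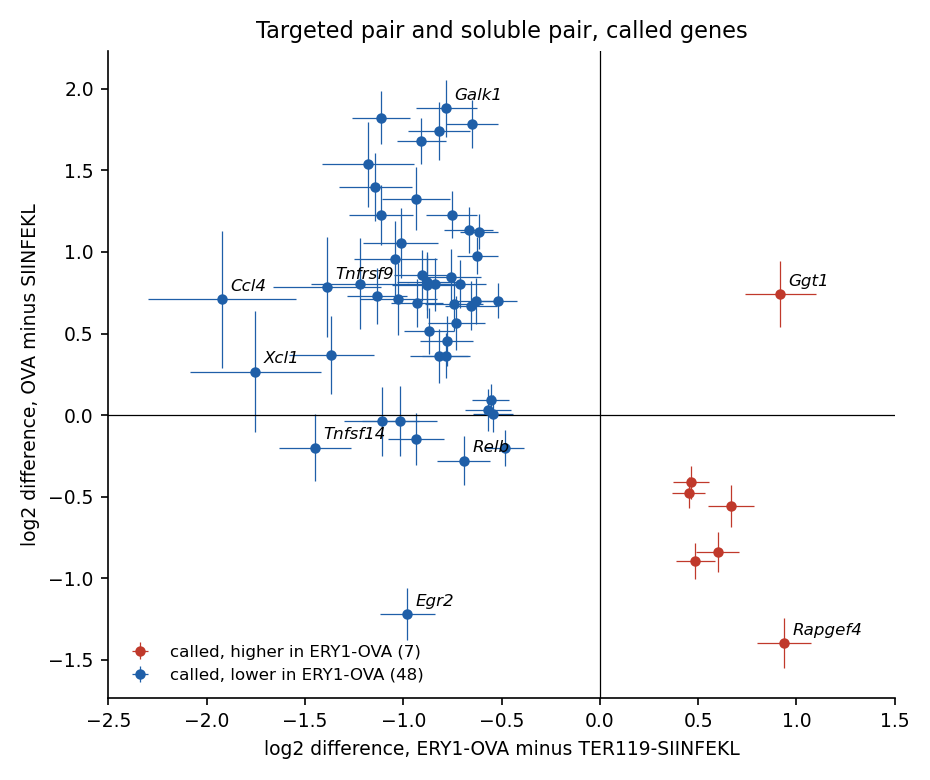
The 55 called genes by their log2 difference between the targeted antigens (ERY1-OVA minus TER119-SIINFEKL, x axis) and between the soluble ones (OVA minus SIINFEKL, y axis), with bars of 1 SE. Of the 48 genes left of 0, 41 lie above the horizontal line, and Egr2 lies lowest among them at -1.22.

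Transcripts of other cells were low but not equal between groups. In bulk samples fewer cells of a type and less RNA per cell cannot be told apart. Of 16 B cell markers, 6 were tested, all lower in ERY1-OVA at any size. Their summed level was 28.4 to 30.7 RPKM in ERY1-OVA libraries and 35.6 to 62.2 RPKM in TER119-SIINFEKL libraries. The other 2 TER119-SIINFEKL libraries had 35.6 and 36.3 RPKM, so the highest sum was that of replicate 1, and the list's median of -0.88 was -0.33 without it. Cd22, called lower and far above Naive in both targeted groups, was among the 6. It gave 6.28, 6.02 and 5.90 RPKM of the ERY1-OVA sums and 10.9, 10.9 and 12.4 RPKM of the TER119-SIINFEKL sums. The other tested B cell markers overlapped between groups, with Cd79b at -0.01 ± 0.25. The remaining B cell markers were not analysed here. The 4 tested erythroid and platelet markers summed to 31.2 to 43.5 RPKM in ERY1-OVA and 50.2 to 77.9 RPKM in TER119-SIINFEKL libraries, most of it from Tfrc, the transferrin receptor that dividing T cells also carry (27.8, 29.3 and 38.8 RPKM in ERY1-OVA and 56.6, 46.7 and 49.6 RPKM in TER119-SIINFEKL libraries). The sums of TER119-SIINFEKL replicates 1 to 3 were 77.9, 50.2 and 52.5 RPKM, so the part outside Tfrc was largest in replicate 1. Without that library the list's median of -0.64 was 0.14. The 5 tested macrophage and dendritic cell markers summed to 21.1 to 29.7 RPKM in ERY1-OVA and 22.0 to 32.9 RPKM in TER119-SIINFEKL, and 4 NK cell markers to 8.37 to 10.4 RPKM and 7.13 to 26.7 RPKM in the same groups, with the highest of all these sums in TER119-SIINFEKL replicate 1. The 2 tested markers of CD4 T cells summed to 3.14 to 3.91 RPKM in ERY1-OVA and 3.69 to 3.90 RPKM in TER119-SIINFEKL, and the 9 neutrophil markers were not analysed here. The part of these transcripts in the called differences was not tested.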

How the data were processed

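Bulk poly(A) RNA of sorted OT-I cells was measured in 14 libraries, and the comparison described here uses 6 of them, with the other groups of the table in the same fit. The authors deposited 1 table of log2 RPKM for 10106 genes, RPKM being reads per kilobase of gene length scaled to library size. Per the submitters' processing notes the tools were STAR 2.4.2, bcl2fastq 2.17.1.14 and edgeR, and mm10 and GRCm38 are listed as builds, with no role stated. Gene annotation, counting and use of strand are not given in the sources used here. The log2 values were used as deposited, with no pseudocount added, since 4.3% are negative and no offset was found. No read counts could be recovered from them, so the depth of each library is unknown and intervals for counting error cannot be given.

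After removal of 313 genes whose RPKM averaged under 1 over the libraries, 9793 were fitted with limma 3.58.1 in R 4.3.3, 1 mean per group over all 5 groups, with a variance trend on mean level. The fit had 9 residual and 4.6 prior degrees of freedom. Benjamini-Hochberg adjustment was over all genes tested, and called means an adjusted p under 0.05. Every adjusted p is from this fit unless a setting is named, each difference is in log2 RPKM, and ± is its standard error. The second comparison was the difference between the protein and peptide contrasts of the targeted and soluble antigens. Nothing in the labels says that libraries came from separate mice, so p-values measure only the spread between these samples, which may be technical. Tested on simulated data for ERY1-OVA against TER119-SIINFEKL over 9793 genes, the script called 31.3% of 67 genes changed by 0.5 log2 units, 74.6% of 67 changed by 1, 93.9% of 66 changed by 2, and 12 unchanged genes. The simulated noise was independent between genes and alike in all groups. The real libraries also varied with gene length, and the SIINFEKL group spread more, so these rates need not hold for the real comparison.

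Alternatives were quantile normalization, median rescaling, pseudocounts of 0.1 and 1, no filter and a minimum of 3, no variance trend, weights per library, moderation that is robust to outliers, a block for the replicate number, a correction for gene length and GC content (9716 genes), a minimum fold of 2, the 6 libraries alone, the fit without the SIINFEKL group, and each library left out. Leaving out each SIINFEKL library for the 55 called genes was added after the values were seen. Coordinates, lengths and exon overlaps are from GENCODE on GRCm38, which matched 10027 genes by Ensembl identifier and not the other 79. Figures were drawn with matplotlib 3.10.9, and summaries were made with numpy 2.4.6 and pandas 2.3.3 in Python 3.11.15.

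The genes and lists were chosen with earlier results of these data known, and the lists of ribosome production and of folate and nucleotide genes were written after the called genes were seen. Genes were named by a rule: up to 8 of the largest called falls and rises, a core set of 28 tested T cell genes, and up to 5 members of each list. The other called genes and members of the 2 later lists were named after their values were seen. A result of the core set is not reported here.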

Additional observations from a re-analysis of the deposited data

Results flagged for a closer look

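The results listed here stand out because the protein minus peptide difference was not the same for the erythrocyte-bound and the soluble antigens, by a test of that difference in the limma fit with adjustment over all genes. Each value is ERY1-OVA minus TER119-SIINFEKL, less OVA minus SIINFEKL, in log2 units. Over all genes 3694 passed. Groups held 2 or 3 libraries, too few to test for a single outlying library.

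Among signalling genes the values were -2.63 for Ccl4, -2.02 for Xcl1, -1.25 for Tnfsf14, -2.17 for Tnfrsf9 and -1.76 for Cd22. In each, ERY1-OVA was lower than TER119-SIINFEKL, while the soluble pair stood at 0.71, 0.27, -0.20, 0.78 and 0.86 in the same order. Among metabolic genes they were -1.74 for Car12, -2.03 for Hk2, -2.72 for Akap1 and -2.54 for Srm. For Car12, Hk2, Akap1 and Srm the soluble pair went the other way, with 0.37, 0.81, 1.54 and 1.40 in that order.

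Genes higher in ERY1-OVA had positive values, 2.33 for Rapgef4, 1.22 for Il6ra, 1.44 for S1pr1, 1.38 for Il6st, 0.87 for Galnt6 and 0.93 for Cmah. Each was lower in OVA than in SIINFEKL.

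Some genes passed this test without being called between ERY1-OVA and TER119-SIINFEKL. They were -4.60 for Il2ra, -3.39 for Gzmb, -3.84 for Gzmk, -2.57 for Mki67, -0.97 for Tbx21, -1.43 for Irf4 and -2.54 for Irf8, all with more transcript after OVA than after SIINFEKL. Gzmk, a granule protease, had 20.9, 7.39 and 8.73 RPKM after OVA, against 0.605 and 0.808 RPKM after SIINFEKL. Il2ra had 0.842, 0.764 and 0.969 RPKM after OVA, against 0.0739 and 0.0855 RPKM after SIINFEKL. In the other direction were Ikzf2 at 1.52, Il7r at 1.03, Cd8a at 0.43, Cd8b1 at 0.53 and Tcf7 at 0.74. The 2 SIINFEKL libraries differed widely from each other, for instance at 145 and 9.95 RPKM in Lag3, and the part of that spread in these values was not tested.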

How the results depend on the processing

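Of the settings tried, these moved the 55 calls by over 1.5 times: no variance trend (29), a replicate block (32), array weights (2477, from weights whose fit stopped before convergence), length and GC correction (94), the SIINFEKL group left out (163) and a minimum fold of 2 (16). With 1 library left out the count lay between 0 and 42, and without both TER119-SIINFEKL replicate 1 and OVA replicate 1 it was 48. Of the calls under the replicate block, 30 were among the 55, and there were 69 when length and GC were corrected as well. The labels do not say whether equal replicate numbers share a mouse or day. Deviations from the group means correlated at -0.314, -0.408 and 0.385 between same-numbered libraries 1 to 3 of the targeted groups. Those of number 1 in ERY1-OVA and 2 in TER119-SIINFEKL correlated at 0.438. These values cannot decide it, since deviations within a group depend on each other and also varied with gene length. Quantile normalization, median rescaling, both pseudocounts, both filters, robust moderation and the 6 libraries alone gave 39 to 63. The 6 libraries alone gave 39, 38 lower and 1 higher, with 28 of the 55 among them and Rapgef4 the higher one, against 48 lower and 7 higher. The 3694 differences between pairs lay between 3134 and 4195 in all settings, and the share of higher ones, 45.4%, was 52.5% under quantile normalization and 53.9% under the length and GC correction. The median over all genes moved by under 0.1 under each scaling. Where 1 SIINFEKL library was left out, the other was taken to vary like the other groups. The cause of these changes was not tested.

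Among uncalled genes near 0 the sign turned in some settings. With 1 library left out the ranges were -0.41 to 0.29 for Ctla4, -0.65 to 0.19 for Nr4a1, -0.27 to 0.23 for Gzmb, -0.15 to 0.49 for Gzmk, -1.06 to 0.55 for Ifng, -0.10 to 0.58 for Mki67, -0.038 to 0.36 for Tbx21 and -0.24 to 0.001 for Eomes. Without both TER119-SIINFEKL replicate 1 and OVA replicate 1, Gzmb was 0.14, Gzmk -0.08 and Mki67 -0.10. Ctla4 was 0.009 under quantile normalization. Gzmb was 0.45 and Mki67 -0.14 with array weights, and Gzmb was 0.012 with the length and GC correction, also beside a replicate block.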
